A study of Caenorhabditis elegans with 2 samples.

Results

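The genes described here are the DnaJ co-chaperone genes of Caenorhabditis elegans, named dnj, and the prefoldin subunit genes, named pfd. All 35 nuclear protein-coding genes with such a name in the WBcel235 annotation were taken, 29 dnj and 6 pfd, out of 19973 nuclear protein-coding genes. Binding of ZNF-207 at their starts was read from chromatin immunoprecipitation followed by sequencing (ChIP-seq) with an antibody against GFP. A stable transgenic line, strain xtl1186, expressed this zinc finger protein, the product of znf-207 (B0035.1), with GFP and FLAG at its C-terminus. Whole hermaphrodites were collected as young adults, 50 hours after release from starvation-synchronized L1 larvae, in 1 group of 2 biological replicates. Control samples were not analysed here, and the promoter that drives the tagged protein is not given in the sources used here. Whole animals were used, so a peak in a few cells and a weaker peak in many cannot be told apart.

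J-domain proteins bring unfolded clients to Hsp70 chaperones and stimulate their ATP hydrolysis, and different family members serve the cytosol, the endoplasmic reticulum, mitochondria, ribosomes or vesicles. Prefoldin is a hexamer of alpha-type and beta-type subunits that catches newly made actin and tubulin and hands them to the chaperonin CCT. Both systems work in the folding of new proteins in all tissues.

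For each gene, the strongest peak summit was taken within a window that began 500 bp before the outermost annotated start and ended 200 bp after it, in each of 4 lists in the ce11 build. These were the list of each replicate (30000 and 25036 peaks), the list made from both replicates together (the pooled list, 30000 peaks) and the thresholded list of 750 peaks, which are the 750 of highest signal in the pooled list. The replicate and pooled lists contain background as well as peaks, so a summit there can be weak. The signal is the authors' own value for each peak, on a scale of its own in each list, and rank 1 is the highest signal. No read counts were in the lists, so depth was unknown.

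Of the 35 genes, 5 had a thresholded summit in the window (14.3%), against 1.64% of all nuclear protein-coding genes. All 5 were dnj genes, namely dnj-9, dnj-12, dnj-13, dnj-19 and dnj-28 (17.2% of 29), and 0 of the 6 pfd genes had one. In the pooled list 17 of the 35 had a summit, 13 dnj and 4 pfd, against 26.2% of all genes. The replicate lists gave 19 of 35 in replicate 1, against 26.0% of all genes, and 17 of 35 in replicate 2, against 21.6%. In both replicates, with the strongest summits at most 200 bp apart, 11 of 35 genes had one (31.4%), against 10.6% of all genes. The share with a summit in none of the 4 lists was 12 of 35 (34.3%), against 63.5% of all genes. These shares are descriptions of a chosen set of genes and were not tested. The thresholded count was 2 with a window from 200 bp before to 100 bp after the start, and 3 when the 750 strongest peaks of replicate 1 alone were used.

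**Figure D1:**
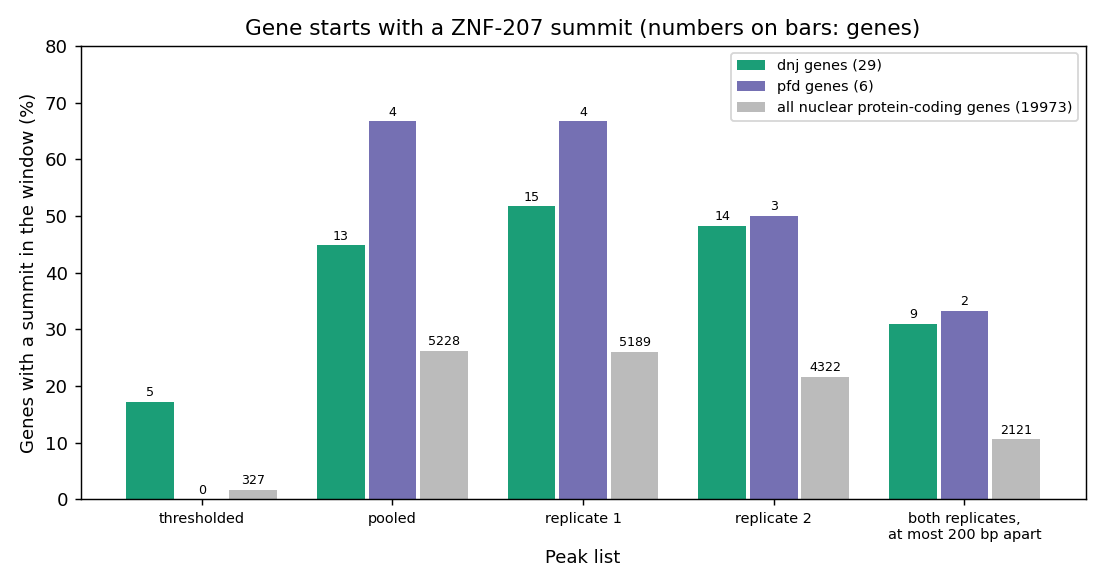
Percentage of dnj genes, pfd genes and all nuclear protein-coding genes whose start window holds a summit, by peak list, with the number of genes printed on each bar. In the thresholded list 5 of 29 dnj genes and 0 of 6 pfd genes have a summit, while the pooled list holds 13 and 4.

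Of the 3 dnj genes grouped here as cytosolic partners of Hsp70 (dnj-12, dnj-13 and dnj-19), dnj-13 and dnj-19 had the stronger pooled peaks, both upstream of the start. The group was set with earlier results of these data known and need not hold all such genes. For example dnj-1, annotated as DnaJ homolog subfamily B member 1, is outside it and had a pooled rank of 5194. Its values therefore do not describe cytosolic partners of Hsp70 as a class. The gene dnj-13 encodes a DNAJB-type protein that works with the chaperones HSP-1 and HSP-110 in taking protein aggregates apart. Its peak lay on chromosome II from 11545265 to 11545724 with the summit at 11545495, 206 bp upstream of the start, inside an intron of dhgd-1. The pooled signal was 108 (rank 454), the signal in replicate 1 was 48.3 (rank 1214) and that in replicate 2 was 57.7 (rank 195). The peak thus ranked higher in replicate 2, and was outside the 750 strongest in replicate 1, while the strongest summits of the replicates lay 30 bp apart.

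The gene dnj-19 encodes a DNAJA-type protein. Its peak lay on chromosome V from 5505008 to 5505467 with the summit at 5505238, 381 bp upstream of the start. The pooled signal was 129 (rank 254), and the replicates gave 71.8 (rank 433) and 58.5 (rank 184) with summits 49 bp apart. It was among the 750 strongest peaks of both replicates. The summit lay 15 bp from the start of nhr-47, a nuclear hormone receptor gene on the other strand that begins 396 bp upstream of dnj-19, so by position the peak is closer to nhr-47 than to dnj-19.

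The highest signal of all 35 genes in the pooled list and in replicate 1 was at dnj-9, which encodes a J-domain protein, while in replicate 2 it ranked below dnj-19 and dnj-13. The peak lay on chromosome II from 4851575 to 4852034 with the summit at 4851805, 251 bp upstream of the start. Its pooled signal of 154 ranked 172, and the replicates gave 103 (rank 154) and 48.2 (rank 353). The replicate summits lay 1 bp apart, the closest of all members. No other protein-coding start was nearer, and the gene upstream on the same strand, T23B7.3, ended 395 bp before the start of dnj-9.

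The sequences at these 3 summits are shown as examples of the thresholded dnj peaks, beside those of the 2 strongest prefoldin summits. The other thresholded summits, at dnj-12 and dnj-28, are not shown. Each is the stretch within 60 bp of the pooled summit that holds no protein-coding exon, read from the RefSeq WBcel235 genome on the strand of the gene. Capitals mark matches on either strand to the words searched, which are described after the sequences. The regions are chrII:4851745-4851865 (dnj-9), chrII:11545435-11545555 (dnj-13), chrV:5505178-5505252 (dnj-19, minus strand), chrIV:11149754-11149874 (pfd-1) and chrIII:7198885-7198990 (pfd-5, minus strand).
dnj-9: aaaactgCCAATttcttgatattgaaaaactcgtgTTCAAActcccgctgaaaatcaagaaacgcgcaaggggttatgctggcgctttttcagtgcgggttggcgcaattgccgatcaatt
dnj-13: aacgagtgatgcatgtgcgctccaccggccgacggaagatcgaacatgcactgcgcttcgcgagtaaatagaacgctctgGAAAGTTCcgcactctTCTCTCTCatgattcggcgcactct
dnj-19: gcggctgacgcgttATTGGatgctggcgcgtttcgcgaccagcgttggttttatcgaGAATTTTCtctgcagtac
pfd-1: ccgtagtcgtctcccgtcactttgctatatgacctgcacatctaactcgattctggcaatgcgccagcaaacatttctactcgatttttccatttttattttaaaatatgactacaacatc
pfd-5: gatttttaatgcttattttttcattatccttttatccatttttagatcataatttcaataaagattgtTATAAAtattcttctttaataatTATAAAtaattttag

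In the printed stretches, the 3 dnj summits held between 44.6% and 54.5% G and C, while pfd-1 held 39.7% and pfd-5 held 15.1%. In regions of 151 bp centred on the summit, the median was 48.3% over the 5 dnj genes with a thresholded summit and 37.1% over the 17 genes with a pooled summit. The medians over all genes were 45.7% for thresholded summits (265 distinct summits) and 37.7% for pooled summits (4699 distinct summits). The high share at the strong dnj summits was therefore also that of other strong promoter summits.

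Because J-domain genes include heat shock genes, 12 words were searched on both strands of these 151 bp regions, among them the palindrome GAANNTTC, the core of the element that heat shock factor binds. Of the 5 members with a thresholded summit, it was found at dnj-12, dnj-13 and dnj-19 and not at dnj-9 or dnj-28. The match lay 20 bp from the summit at dnj-13, 43 bp at dnj-19 and 54 bp at dnj-12. Of all distinct thresholded promoter summits 31 of 265 (11.7%) held the word, of all pooled ones 8.94%, and of the regions from 250 to 100 bp upstream of all starts, also 151 bp long, 9.66%. Of the 17 pooled summits at members, 5 held it, the others being dnj-30 and pfd-4. The other phase of the element, TTCNNGAA, occurred at dnj-10, dnj-12 and dnj-30 (17.6% of 17, against 8.49% of all pooled summits), and the phases can overlap each other and the word TTTGAA.

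The other words stood beside the following shares of all pooled summits. TTTGAA, a core of the cell cycle element bound by DREAM, occurred at 8 of the 17 member summits (47.1%), against 33.2% of all pooled summits and 40.8% of the regions upstream of all starts. CCAAT occurred at 4 member summits (23.5%, against 25.3%). The repeat GAGAGA occurred at 3 (17.6%, against 14.6%). The word TATAAA occurred at 2 (11.8%, against 18.8%), and the GATA word GATAAG at 1 (5.88%, against 5.81%). The remaining 5 words occurred at 0 of the 17 member summits. Over all pooled summits the share was 5.00% for the E2F-like word GGCGGG and 3.92% for the E-box CACGTG. It was 8.49% for TCTGCG, a word of the ethanol and stress response element. For the AP-1-like word TGACTCA it was 1.34%, and for ACGTGG, from the unfolded protein response element, it was 5.55%. These matches are letters in a window and not sites of binding.

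The other cytosolic DNAJA-type gene, dnj-12, had the weakest of the 5 thresholded peaks. It lay on chromosome I from 14756575 to 14757034 with the summit at 14756805, 99 bp upstream of the start. The pooled signal was 96.1 (rank 618), and the replicates gave 52.7 (rank 981) and 37.3 (rank 799), 7 bp apart. It fell outside the 750 strongest peaks of either replicate. The thresholded list ended at a signal of 88.6, and no other member lay between dnj-12 and the next gene, dnj-29, at rank 2140. The summit was also in the window of mtx-1, a metaxin gene on the other strand whose start lay 492 bp upstream. In the RefSeq annotation the start of dnj-12 differed by 159 bp, more than the 99 bp between summit and start. From that start the distance of the summit, its side and its place in a narrower window could differ. The direction of the difference is not given here.

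The peak of dnj-28, which encodes another J-domain protein, lay on the same chromosome from 2996293 to 2996439 with the summit at 2996382, 106 bp upstream of the start. The pooled signal was 112 (rank 402), and the replicates gave 76.5 (rank 350) and 38.4 (rank 734), with summits 4 bp apart. It was thus among the 750 strongest of both replicates, as dnj-9 and dnj-19 were. That made 3 of 35 genes (8.57%), against 0.886% of all genes. The interval of the pooled peak was 147 bp wide where the other 4 were 460 bp wide, while in the replicate lists its width was the usual 476 and 460 bp. The window of supr-1, on the other strand with its start 574 bp upstream, held the same summit.

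**Figure D2:**
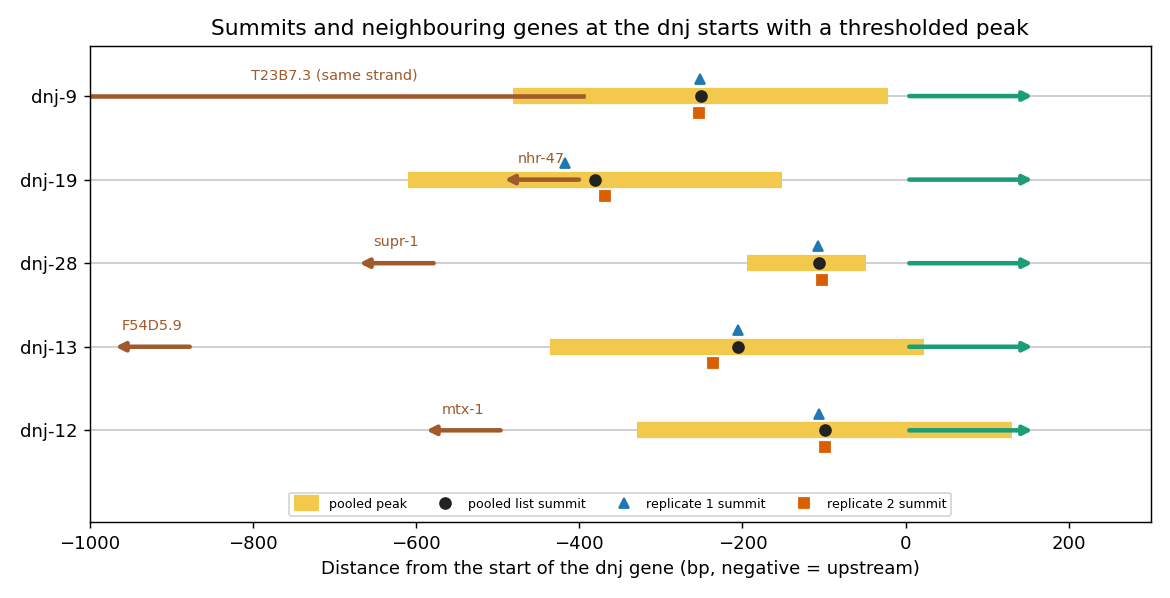
Pooled peak (bar), pooled summit and replicate summits at the 5 dnj genes with a thresholded peak, with distance from the dnj start in bp on the x axis and neighbouring genes as brown arrows or a brown line. All summits lie upstream of the annotated start used here, between 99 and 418 bp from it, and the replicate summits of a gene lie within 49 bp of each other.

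Prefoldin genes had no thresholded summit, and their pooled summits ranked below those of the 5 dnj genes described so far and of dnj-29. The median rank was 4308.5 over the 4 pfd genes with a pooled summit and 4958 over the 13 dnj genes with one. The beta-type genes are pfd-1, pfd-2, pfd-4 and pfd-6 and the alpha-type genes pfd-3 and pfd-5. The strongest was at pfd-5 (chromosome III, summit 7198930, 46 bp upstream), with a pooled signal of 49.9 (rank 2986), 34.9 in replicate 1 (rank 2786) and 15.8 in replicate 2 (rank 9726). At pfd-1 (chromosome IV, summit 11149814, 299 bp upstream) the pooled signal was 46.2 (rank 3642), with 16.0 in replicate 1 (rank 17474) and 27.5 in replicate 2 (rank 1935). The replicates thus placed these 2 genes in opposite order, and the 9.03-fold ratio of ranks at pfd-1 was the largest of all members. The pooled summit of pfd-1 was also in the window of F01G4.6, on the other strand with its start 609 bp upstream.

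The summit of pfd-4 lay 96 bp upstream (pooled signal 40.8, rank 4975), with 35.6 in replicate 1 (rank 2658) and none in the list of replicate 2. It was nearer to B0035.22, at 42 bp, and also fell in the window of B0035.3 on the other strand. At pfd-2 the reverse held, with a pooled signal of 28.0 (rank 12332), none in replicate 1 and 16.0 in replicate 2 (rank 9436), 331 bp upstream. For pfd-3 only replicate 1 gave a summit (signal 13.3, rank 23871, 101 bp downstream), and pfd-6 had none in any list. No prefoldin gene was among the 750 strongest peaks of either replicate.

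Of the 4 dnj genes grouped here under the endoplasmic reticulum, a group that need not hold all such genes, dnj-29 stood highest. It encodes the counterpart of Sec63, which works at the protein translocation channel. Its summit (chromosome I, 14113297, 189 bp upstream) had a pooled signal of 57.1 (rank 2140), 43.1 in replicate 1 (rank 1627) and 24.2 in replicate 2 (rank 2818), and it was shared with the complex I gene ndua-2 on the other strand. The gene dnj-7, the counterpart of human DNAJC3, a J protein of the lumen, had no pooled summit but one in each replicate, with signals of 24.47 (rank 6973) and 16.098 (rank 9336) at 430 and 365 bp upstream. For dnj-20, an ERdj3-like gene, only replicate 1 held a summit (signal 13.0, rank 24529), and dnj-27, which encodes a protein with J and thioredoxin domains, had none in any list. Thus 1 of these 4 genes had a pooled summit (25%), against 26.2% of all nuclear protein-coding genes. The share was 3 of 4 in replicate 1 (75%, against 26.0%) and 2 of 4 in replicate 2 (50%, against 21.6%). In both replicates, at most 200 bp apart, 2 of 4 had one (50%, against 10.6%). With so few genes and lists that differ, these shares do not place the group against the genome.

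Neither of the 2 mitochondrial members had a thresholded summit, where 1.64% of all nuclear protein-coding genes had one. The gene dnj-10, for a mitochondrial matrix J protein, had a pooled signal of 25.4 (rank 15146) and 25.9 in replicate 1 (rank 6010), 142 bp upstream in the pooled list, and none in replicate 2. For dnj-21, for the TIM14 subunit of the import motor, only replicate 2 gave one (signal 13.8, rank 13630, 90 bp downstream). The median signals of the whole lists were 25.5 in the pooled list, 17.4 in replicate 1 and 14.3 in replicate 2, so the pooled value of dnj-10 and the value of dnj-21 lay just under them.

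At vesicle genes, dnj-14, which encodes the cysteine string protein of synaptic vesicles, had a pooled signal of 36.1 (rank 6831) with 24.4 (rank 7042) and 12.25 (rank 17583) in the replicates. Its summit lay 347 bp upstream, 184 bp from the start of glit-1 on the other strand. The auxilin gene dnj-25, which acts in uncoating clathrin vesicles, had no summit in any list.

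Of the dnj genes not assigned to a compartment here, 7 of 18 had a pooled summit (38.9%), against 26.2% of all nuclear protein-coding genes. Besides dnj-9 and dnj-28 these were dnj-4 (pooled signal 40.9, rank 4958, 45 bp upstream), dnj-1 (40.1, rank 5194, 388 bp upstream), dnj-3 (35.3, rank 7206, 179 bp downstream), dnj-8 (30.8, rank 10025, 153 bp upstream) and dnj-30 (24.5, rank 16161, 109 bp downstream). In the replicates, the summits of dnj-4 lay 195 bp apart (ranks 4637 and 11081), within the 200 bp taken as a match. Those of dnj-1 lay 248 bp apart in the replicates (ranks 4009 and 10047) and those of dnj-3 293 bp apart (ranks 13996 and 7215), beyond that limit, while dnj-8 was missing from replicate 2 and dnj-30 from replicate 1. Weak summits in 1 replicate only were found for dnj-18 (replicate 1, rank 21819) and dnj-23 (replicate 2, rank 23938).

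The 12 genes with no summit in any list were dnj-2, dnj-5, dnj-11, dnj-15, dnj-16, dnj-17, dnj-22, dnj-24, dnj-25, dnj-26, dnj-27 and pfd-6. Among them, dnj-11 encodes a counterpart of human DNAJC2, a J protein of the ribosome. The nearest pooled summit of dnj-16 lay 592 bp downstream of its start (signal 27.9) and that of dnj-25 633 bp downstream (17.9), whereas for dnj-24, dnj-26 and dnj-27 it was 14818, 11988 and 11750 bp away. The start of dnj-24 differed by 4518 bp between the Ensembl and RefSeq annotations, the largest difference of all members.

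**Figure D3:**
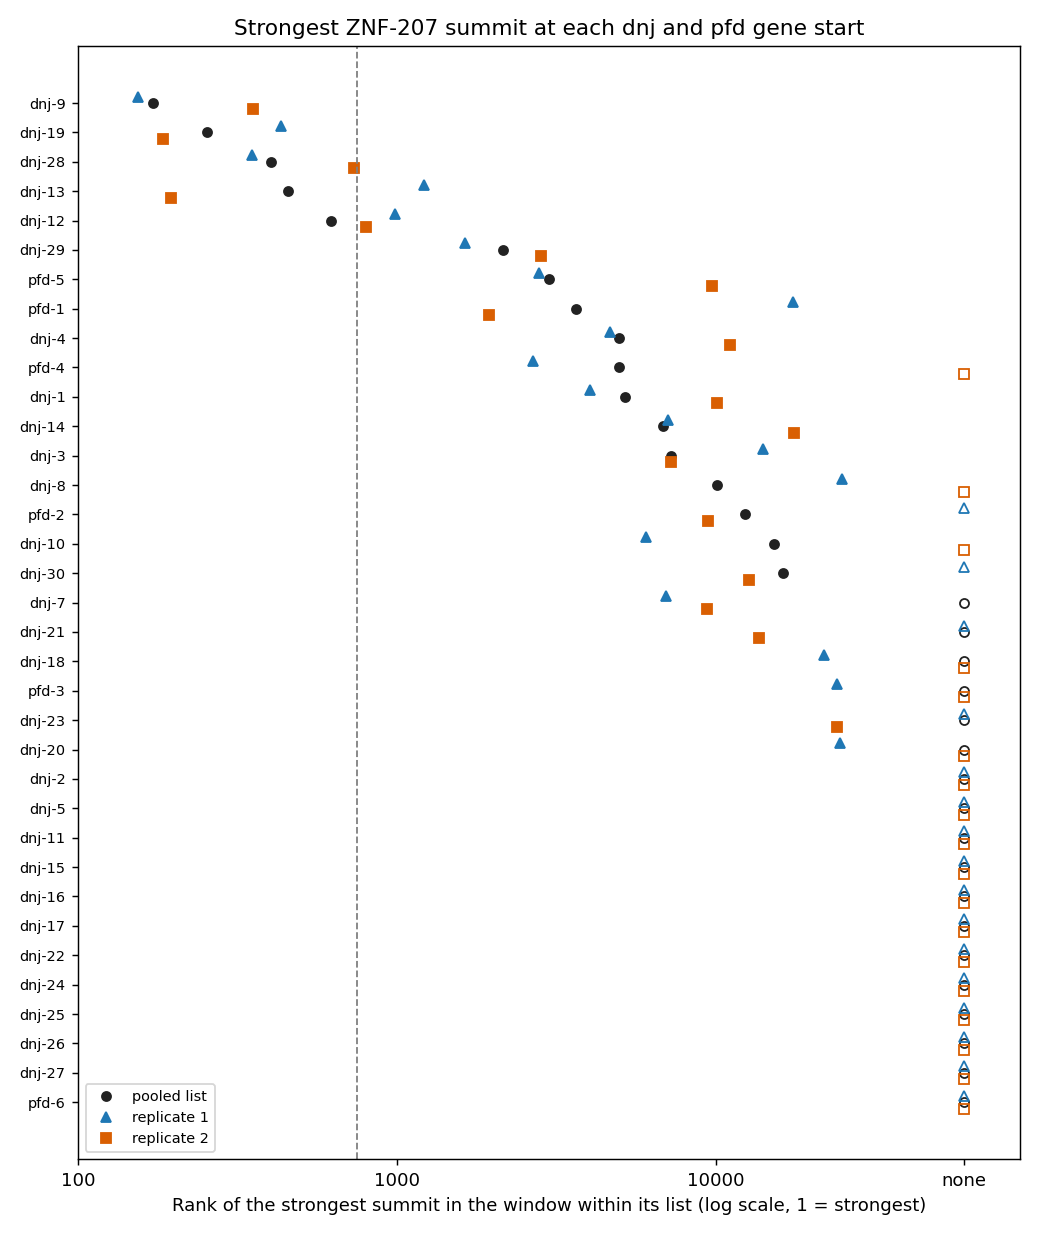
Rank of the strongest summit in the window of each of the 35 genes (log x axis, 1 is the highest signal) in the pooled list and in replicates 1 and 2, with open symbols at "none" where a list holds no summit and a dashed line at rank 750. The 5 genes at the top lie left of the line in the pooled list, with no other member between ranks 618 and 2140, and 12 genes have no summit in any list.

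Across the 13 members with a summit in both replicates, the order of the ranks was related, with Spearman's rho of 0.670. This is a description over genes whose values come from the same 2 libraries. The distance between the 2 summits was 1 to 49 bp at the 5 genes with a thresholded peak, which were chosen by their strength, and 24 bp (dnj-14) to 293 bp (dnj-3) at the other 8, with a median of 59 bp over all 13. The deposited −log10 q-value of the pooled peak was 2.47 at all 5 genes with a thresholded peak, 1.88 at dnj-29, 1.36 at pfd-5, 1.09 at pfd-1 and between 0.149 and 0.737 at the other 9 members with a pooled summit. The value at those 5 genes was identical over pooled signals from 96.1 to 154, so it does not separate their peaks. After pfd-1, the largest ratios of ranks were at dnj-13 (6.23-fold) and pfd-5 (3.49-fold). Another 6 members had a summit only in replicate 1 and 4 only in replicate 2. These 2 counts were not taken over all genes, so they do not set the members apart.

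Members that had a pooled summit ranked at a median of 4958, against 10807 for the 5228 genes of the genome with one. In replicate 1 the medians were 4637 over 19 members and 10701 over all genes, and in replicate 2 they were 9336 over 17 members and 9939 over all. The members' median therefore stood well above the genome's in the pooled list and in replicate 1 and close to it in replicate 2. Members with no summit have no rank and do not enter these medians. The median position was 153 bp upstream of the start over the 17 members and 138 bp upstream over all genes with a pooled summit. Of the 17 summits 15 lay upstream, a count that was not taken over all genes. The window reaches 500 bp upstream and only 200 bp downstream, so it favours upstream summits by its construction.

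**Figure D4:**
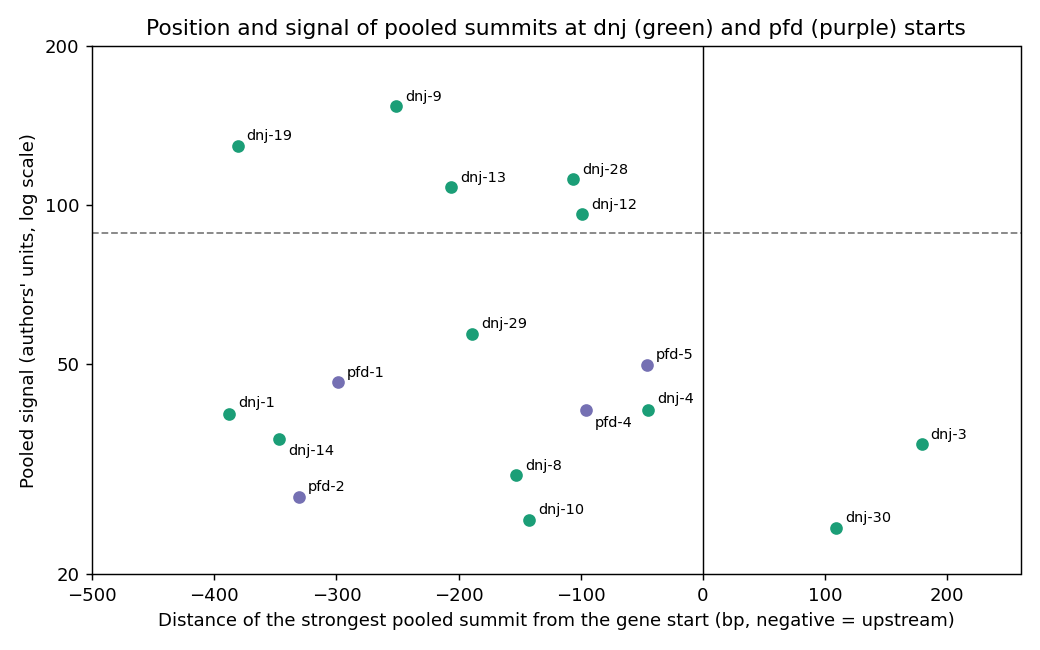
Distance of the strongest pooled summit from the start (x axis, bp, negative upstream) against its pooled signal (log y axis) for the 17 members with one, dnj genes in green and pfd genes in purple, with a dashed line at 88.6, the lowest thresholded signal. The 5 genes above the line lie between 96.1 and 154, and the next, dnj-29, at 57.1.

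The layout of neighbouring genes differed from that of the genome. An opposite protein-coding start lay within 1000 bp upstream at 15 of the 35 genes (42.9%), against 17.7% of all genes, and 4 of these 15 had a thresholded summit (dnj-12, dnj-13, dnj-19 and dnj-28). Over all such head-to-head genes 3.79% had one. A further 11 members (31.4%, against 17.9%) followed a gene on the same strand that ended within 500 bp, as genes transcribed together in operons do. Of these dnj-9 alone had a thresholded summit, where 2.24% of all such genes had one. Among the 9 members with neither layout the count was 0, against 0.879% of such genes. Of the 17 pooled summits, 8 also fell in the window of another protein-coding gene, a count that was not taken over all genes. Of these, 3 (dnj-14, dnj-19 and pfd-4) lay nearer to the start of another gene. The gene's own start was thus the nearest at 14 of 17 member summits (82.4%), against 89.0% over all genes with a pooled summit. Only protein-coding starts were compared. Noncoding RNA genes also lay within 200 bp of the pooled summits of dnj-1, dnj-13, dnj-14, dnj-19 and pfd-1, and this was not counted over all genes.

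The genes dnj-1, dnj-2 and pfd-4 lie beside the tagged gene. On chromosome IV the start of dnj-2 is 3008 bp, that of pfd-4 4235 bp and that of dnj-1 11936 bp from the start of znf-207. None of them had a thresholded summit, and dnj-2 had none in any list. Whether the transgene carries any of this neighbourhood is not given in the sources used here, and its part in the weak summits of dnj-1 and pfd-4 was not tested.

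The chaperones that J proteins and prefoldin serve gave the following counts, shown beside the members with no test of a difference. Over all nuclear protein-coding genes the share with a thresholded summit was 1.64%. Of 10 Hsp70 genes 5 had a thresholded summit, namely hsp-1 (pooled rank 63), hsp-3 (170), hsp-110 (268) and the neighbours F44E5.4 and F44E5.5, which share 1 summit (70). The Hsp70 gene hsp-70 had a pooled summit at rank 6164 and no thresholded one. Of 11 nucleotide exchange factors and Hsp90 system genes 2 had one, bag-1 (rank 140) and ahsa-1 (rank 440). The chaperonin that receives clients from prefoldin had 3 of 8 subunits, cct-8 (rank 137), cct-7 (342) and cct-1 (404). Prefoldin had such a summit at 0 of 6 genes, as most groups of so few genes would at the share over all genes. Of 21 actin and tubulin genes, the clients of that route, 2 had one (tba-2 at rank 360 and tbb-1 at 620). Of 4 mitochondrial chaperone genes 1 had one, Y22D7AL.10 (rank 44). The gene hsp-6, with no thresholded summit, is counted both among these 4 and among the 10 Hsp70 genes. The 12 small heat shock protein genes and the pair of rme-8 and uri-1, a J-domain and a prefoldin-like gene with other names, had 0.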

How the data were processed

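The authors deposited peak lists in narrowPeak format, and the 4 lists in the ce11 build were used, per the deposited file headers and README: 1 for each replicate, 1 made from both together (input to the irreproducible discovery rate procedure, with background) and the optimal thresholded list. The signal of each peak (column 7) was deposited by the authors on a scale set within each list and was used only to rank peaks. The deposited −log10 q-value (column 9) broke ties, and the deposited summit offset (column 10) placed the summit. The sources used here do not name the peak caller, aligner or versions. Lists in ce10 were not used, as the annotation is WBcel235 (Ensembl release 115). No peak ran past a chromosome end of the RefSeq genome of that assembly, and RefSeq gave 30 of the 35 genes the same start.

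Ranks, distances (1-based) and counts were computed with Python 3.11 and tested on simulated data. The study has 1 group, so no test between groups was run. Nearby starts are given where a same-strand gene ends within 500 bp or an opposite one begins within 1000 bp upstream. Sequence words were searched within 75 bp of summits. The genes, gene lists, words and compartments were chosen with earlier results of these data known, and the neighbour classes and the printed sequences after the values were seen. Of the listed names, 10 had no match in the annotation. Named were all members with a thresholded summit or among the 750 strongest of a replicate, and the next 6 by pooled rank. Also named were members with no summit, the 3 with the most different ranks, and genes sharing a thresholded summit. Of the genes that share other pooled summits only some were named. Other members were named to account for all 35. The alternatives changed the window, the start, the threshold, the replicates, the assignment to genes and the match distance.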

Additional observations from a re-analysis of the deposited data

How the results depend on the processing

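With a window from 200 bp upstream to 100 bp downstream, the members with a thresholded summit fell from 5 to 2 (dnj-12 and dnj-28), those with a pooled summit from 17 to 11 and those with matching summits in both replicates from 11 to 4, and the median distance went from -153 to -99 bp. It was -197.5 bp with the window from 1000 bp upstream. A narrower window can only hold fewer summits by its construction. The stronger 375 of the thresholded peaks held 2 members (dnj-9 and dnj-19). The 750 strongest peaks of a single replicate held 3 (without replicate 2: dnj-9, dnj-19 and dnj-28) or 4 (without replicate 1, where dnj-13 was added). With summits at most 50 bp apart, 6 members matched. Without replicate 2 the median rank was 4637 and the median distance -173 bp, and without replicate 1 they were 9336 and -205 bp. The cause of this difference was not tested. The same 5 genes had a thresholded summit with the wider window, with any transcript start, with overlap of the peak interval and with the 1500 strongest pooled peaks, and the count was also 5 with nuclear peaks only. Counting only the nearest gene removed dnj-19 and left 4. In all, 22 of 32 alternatives left a count within 1.5 times, or a median within the spread of the replicates, of its value above. No paired analysis was possible because the study has 1 group and no comparison between groups. With 2 replicates and no read counts, ranks below the thresholded list are uncertain.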

Other observations

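Several members had a second, weaker summit in or near the window. At dnj-13 another pooled summit lay 1 bp upstream of the start (rank 8322), and at pfd-1 one lay 29 bp upstream (rank 24713). At dnj-3, whose strongest summit was downstream of the start, another lay 115 bp upstream (rank 13670), which is the side on which replicate 1 had its strongest summit (114 bp upstream).

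Some members without a pooled summit follow another gene on the same strand closely, and in some cases that gene's own window held a pooled summit. The gene dnj-2 begins 98 bp after the end of B0035.3, whose window held the summit at rank 4975 that it shares with pfd-4. The gene dnj-15 begins 109 bp after rnp-3, which had a summit at rank 19293. Upstream genes of dnj-18 (T04A8.7), dnj-21 (T19B4.5) and pfd-6 (F21C3.6) had no pooled summit. Whether any of these genes are transcribed together was not tested.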
